A study of Homo sapiens with 8 samples.

Results

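The ERK feedback genes are the genes through which cells register and restrain signalling by the mitogen-activated kinase ERK. The set described here has 10 members, taken by symbol from the 15852 genes of the count table: the dual-specificity phosphatases DUSP1, DUSP4, DUSP5 and DUSP6, the Sprouty and Spred genes SPRY2, SPRY4 and SPRED1, the ETS transcription factors ETV4 and ETV5, and PHLDA1. All 10 were found, and all 10 had enough counts to be tested. RNA was sequenced from KYSE150, a squamous carcinoma cell line from the esophagus, in 4 libraries labelled as control and 4 labelled as carrying a short hairpin RNA against BOLA3-L, an isoform of the mitochondrial protein BOLA3. Neither group had any other treatment per the labels. How many hairpin sequences, clones or separate cultures stand behind the libraries is not given in the sources used here, so the p-values measure only the spread between these libraries, which may be technical.

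ERK is the last kinase of a cascade that runs from growth factor receptors through RAS, RAF and MEK. Active ERK switches on transcription of its own inhibitors. Dual-specificity phosphatases remove the activating phosphates from ERK, DUSP6 in the cytoplasm and DUSP1, DUSP4 and DUSP5 in the nucleus, and DUSP1 also acts on the kinases JNK and p38. Sprouty and Spred proteins act further upstream, between the receptor and RAF, and SPRED1 brings the RAS inhibitor neurofibromin to the membrane. ETV4 and ETV5 are effectors that carry the signal to other genes. The messenger RNA of these genes is widely read as a gauge of ERK output in squamous and other carcinomas.

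The question was whether the feedback genes moved together when BOLA3-L was depleted. They did not: DUSP5, DUSP1, PHLDA1 and DUSP4 rose, DUSP6, SPRED1 and ETV4 fell, and SPRY2, SPRY4 and ETV5 did not pass the test (edgeR's quasi-likelihood test, adjusted over all 11841 tested genes). The changes were small, from a log2 change of -0.60 for DUSP6 to 0.40 for DUSP5. Of the 10 members 7 passed, where 30.7% of all tested genes did; 15.0% of tested genes rose and 15.6% fell. The median absolute log2 change was 0.24 over the 10 members and 0.11 over all tested genes, and the median signed change was 0.07 over the members and 0.00 over all tested genes. In bulk RNA, fewer cells with a transcript and less transcript per cell cannot be told apart.

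Promoter sequences were set side by side for members that moved in opposite directions. The promoter set used here (RefSeq, GRCh38.p14) holds sequences for 6 of the 10 members, and none for DUSP4, DUSP5, ETV4 and ETV5. Those of DUSP1 and PHLDA1, which rose, and of DUSP6 and SPRED1, which fell, are shown 5′ to 3′ from 250 bases before to 50 bases after the annotated start. Capitals mark matches on either strand to any of 5 motifs of signal-responsive or core promoters. They are the cyclic AMP response element TGACGTCA, the AP-1 site TGANTCA and the ETS motif CCGGAA. The others are the TATA box TATAAA and the CArG box of serum response factor. Shorter ETS sequences were not searched for.
DUSP1 (chr5:172771146-172771445, minus strand): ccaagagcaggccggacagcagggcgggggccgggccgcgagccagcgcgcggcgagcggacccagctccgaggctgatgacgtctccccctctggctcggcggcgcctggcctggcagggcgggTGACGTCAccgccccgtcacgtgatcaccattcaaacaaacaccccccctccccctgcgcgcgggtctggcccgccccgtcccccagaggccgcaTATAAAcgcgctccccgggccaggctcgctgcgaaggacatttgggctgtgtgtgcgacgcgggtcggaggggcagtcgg
PHLDA1 (chr12:76031727-76032026, minus strand): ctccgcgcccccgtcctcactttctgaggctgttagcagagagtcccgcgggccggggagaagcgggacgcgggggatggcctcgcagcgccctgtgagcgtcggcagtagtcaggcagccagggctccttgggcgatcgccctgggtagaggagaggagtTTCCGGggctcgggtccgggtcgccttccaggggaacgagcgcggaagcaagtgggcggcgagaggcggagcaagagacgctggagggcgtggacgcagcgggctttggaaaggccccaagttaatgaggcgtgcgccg
DUSP6 (chr12:89352452-89352751, minus strand): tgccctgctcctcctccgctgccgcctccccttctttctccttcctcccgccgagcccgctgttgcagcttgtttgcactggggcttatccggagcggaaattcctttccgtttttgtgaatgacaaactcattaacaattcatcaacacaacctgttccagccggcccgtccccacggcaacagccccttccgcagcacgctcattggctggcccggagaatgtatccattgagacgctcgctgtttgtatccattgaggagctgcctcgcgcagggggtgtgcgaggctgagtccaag
SPRED1 (chr15:38252586-38252885, plus strand): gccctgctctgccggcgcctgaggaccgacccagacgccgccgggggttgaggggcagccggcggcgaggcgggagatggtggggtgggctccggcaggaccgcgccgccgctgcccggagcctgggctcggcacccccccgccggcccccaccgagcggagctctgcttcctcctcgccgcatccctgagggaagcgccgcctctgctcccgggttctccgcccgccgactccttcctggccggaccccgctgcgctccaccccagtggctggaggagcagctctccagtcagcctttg
The window of DUSP1 held the full cyclic AMP response element once, beginning 125 bases before the start, and a TATA box beginning 30 bases before it. Over 34796 distinct RefSeq promoters of the same length, 1.84% held the first motif and 11.6% the second. PHLDA1 held the ETS motif CCGGAA once, beginning 89 bases before the start, as did the first of the 3 annotated starts of SPRY2 (142 bases before). Of all promoters 17.2% held that motif. The windows of DUSP6, SPRED1 and SPRY4 and the other two of SPRY2 held none of the 5 motifs, of which AP-1 occurs in 7.73% and the CArG box in 1.30% of all promoters. The shorter motif TGACG, which overlaps the full response element, began at 4 places in DUSP1, at 1 in SPRY4 and at 1 in the first window of SPRY2, and was found in 24.5% of all promoters. Among members that rose, DUSP1 and PHLDA1 shared none of the 5 motifs in these windows, and DUSP4 and DUSP5 had no window. Whether any motif goes with the direction of change was not tested. A match is a run of letters, not a measured binding site.

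Library totals ranged from 31178036 to 35147860 counts, at which 3 counts correspond to 0.0854 to 0.0962 CPM. CPM is the count scaled to a common library size with TMM factors. BOLA3 itself, counted over all its isoforms, fell from 20.8 ± 1.26 to 6.58 ± 0.531 CPM (SD, n = 4 each), a log2 change of -1.66 (adjusted p 6.9e-11 in edgeR). The second principal component gave BOLA3-L knockdown replicate 1 a score of 20.1, while its 3 fellow replicates scored -10.1 to -4.81. Without that library 7 members again passed, DUSP1, DUSP4, DUSP5 and PHLDA1 up and DUSP6, SPRED1 and ETV4 down. Of 10 squamous epithelial markers 9 were high enough to test and all 9 fell, their sum going from 5105-5144 CPM in controls to 3200-3552 CPM after knockdown; SOX2 was the exception, at 0.166 CPM on average. Their part in the changes below was not tested. The 6 fibroblast markers summed to 9.85-14.7 CPM in controls and 4.25-6.999 CPM after knockdown, with COL1A2 and DCN at 3 counts or fewer in every library. The 6 leukocyte markers summed to 77.6-84.6 and 73.9-79.5 CPM, with CD3E and LYZ among those at 3 counts or fewer, and the 4 endothelial markers to 0.880-1.82 and 1.87-2.44 CPM, with PECAM1 at 3 counts or fewer. The genome build was hg38.

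Levels were compared between members with the deposited FPKM values, which divide by gene length. In controls ETV4 (11.2 ± 0.346 FPKM) and PHLDA1 (10.6 ± 0.137 FPKM) stood highest (SD, n = 4 each). They were followed by DUSP5 (4.06 ± 0.278 FPKM), DUSP1 (3.95 ± 0.351 FPKM), SPRED1 (2.27 ± 0.118 FPKM), DUSP4 (2.08 ± 0.0652 FPKM) and SPRY2 (2.07 ± 0.111 FPKM). ETV5 (1.88 ± 0.299 FPKM), DUSP6 (1.76 ± 0.350 FPKM) and, far below, SPRY4 (0.236 ± 0.0612 FPKM) came last. The ranges of neighbours in this order overlapped from SPRED1 down to DUSP6 and between DUSP5 and DUSP1, although SPRED1 lay above DUSP4 within each of the 4 control libraries. At the top the order turned over with knockdown. ETV4 exceeded PHLDA1 in all 4 control libraries, and PHLDA1 (12.5 ± 0.470 FPKM) exceeded ETV4 (9.37 ± 0.824 FPKM) in all 4 knockdown libraries. SPRED1 averaged 1.70 ± 0.188 FPKM after knockdown (SD, n = 4), below DUSP4 (2.43 ± 0.105 FPKM) and SPRY2 (2.24 ± 0.102 FPKM), with a range that overlapped that of ETV5 (1.81 ± 0.0771 FPKM). Each FPKM rests on the 1 length per gene that the authors used, from 2.01 kilobases for DUSP1 to 8.89 kilobases for SPRED1. An isoform of another length would shift a gene's place. It would leave the change between groups as it is only if both groups used the same isoforms, which was not tested.

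**Figure D1:**
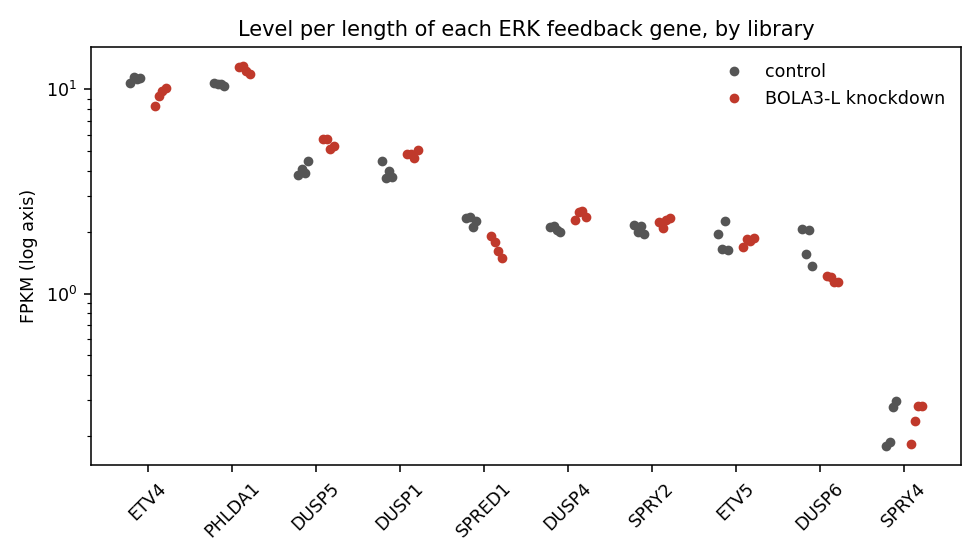
FPKM (vertical log axis) of the 10 ERK feedback genes (horizontal axis, ordered by control mean) in each of 4 control libraries (grey) and 4 BOLA3-L knockdown libraries (red), 1 point per library. ETV4 lies above PHLDA1 in the controls and below it after knockdown, and SPRY4 lies far below the other genes.

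Of the 4 phosphatases in the set, DUSP5, DUSP1 and DUSP4 rose and DUSP6 fell, while DUSP7, a cytoplasmic ERK phosphatase outside the set, rose (log2 change 0.28, adjusted p 2.3e-04 in edgeR). DUSP5, a phosphatase selective for ERK that also holds it in the nucleus (identifier 1847, chromosome 10, 110497907 to 110511533), read 9.53, 10.1, 9.74 and 11.1 CPM across controls 1 to 4. With knockdown, replicates 1 to 4 read 13.98, 14.1, 12.5 and 12.9 CPM. Every knockdown library lay above every control library. The log2 change was 0.40 (SE 0.0814, 95% interval 0.23 to 0.57, adjusted p 0.00104 in edgeR), the largest rise in the set.

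DUSP1, an immediate early phosphatase for p38, JNK and ERK (identifier 1843, chromosome 5, 172768096 to 172771195), stood at 9.02, 7.42, 8.07 and 7.57 CPM in the controls and at 9.57, 9.67, 9.24 and 10.1 CPM after knockdown. The groups did not overlap, but the highest control and the lowest knockdown library lay close together. Its log2 change was 0.27 (SE 0.0915, adjusted p 0.0344 in edgeR). That call is weak: the adjusted p was 0.0676 to 0.0992 when control replicate 2, 3 or 4 was left out or when knockdown replicate 2 or 4 was, and 0.0509 with a replicate block. DUSP4, a nuclear phosphatase induced by ERK (identifier 1846, chromosome 8, 29333064 to 29350684), stood at 15.6, 15.7, 15.02 and 14.7 CPM in the controls and at 16.5, 18.1, 18.2 and 17.2 CPM after knockdown. Again the groups did not overlap, and the log2 change was 0.20 (SE 0.0667, adjusted p 0.0271 in edgeR). The call was lost when control replicate 3 or 4 was left out or when knockdown replicate 2 or 3 was (adjusted p 0.0685 to 0.0796).

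DUSP6, the cytoplasmic phosphatase specific to ERK (identifier 1848, chromosome 12, 89347235 to 89352501), read 7.59, 5.71, 7.47 and 5.01 CPM across controls 1 to 4. With knockdown, replicates 1 to 4 read 4.37, 4.37, 4.10 and 4.12 CPM. The controls spread widely, with replicates 1 and 3 high, while the knockdown libraries lay within a narrow band below all of them (SD 1.28 against 0.154 CPM). DUSP6 fell by 0.60 on the log2 scale (SE 0.137, 95% interval -0.89 to -0.32, adjusted p 0.00254 in edgeR), to 65.7% of the control mean. These values rest on 138 to 246 counts per library. On log2(FPKM + 1) the change was -0.34, and on log2(FPKM + 0.1) it was -0.53, as the added number shrinks changes at such low FPKM. In GENCODE an antisense gene overlaps an exon of DUSP6, and whether reads were counted by strand is not given in the sources used here.

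**Figure D2:**
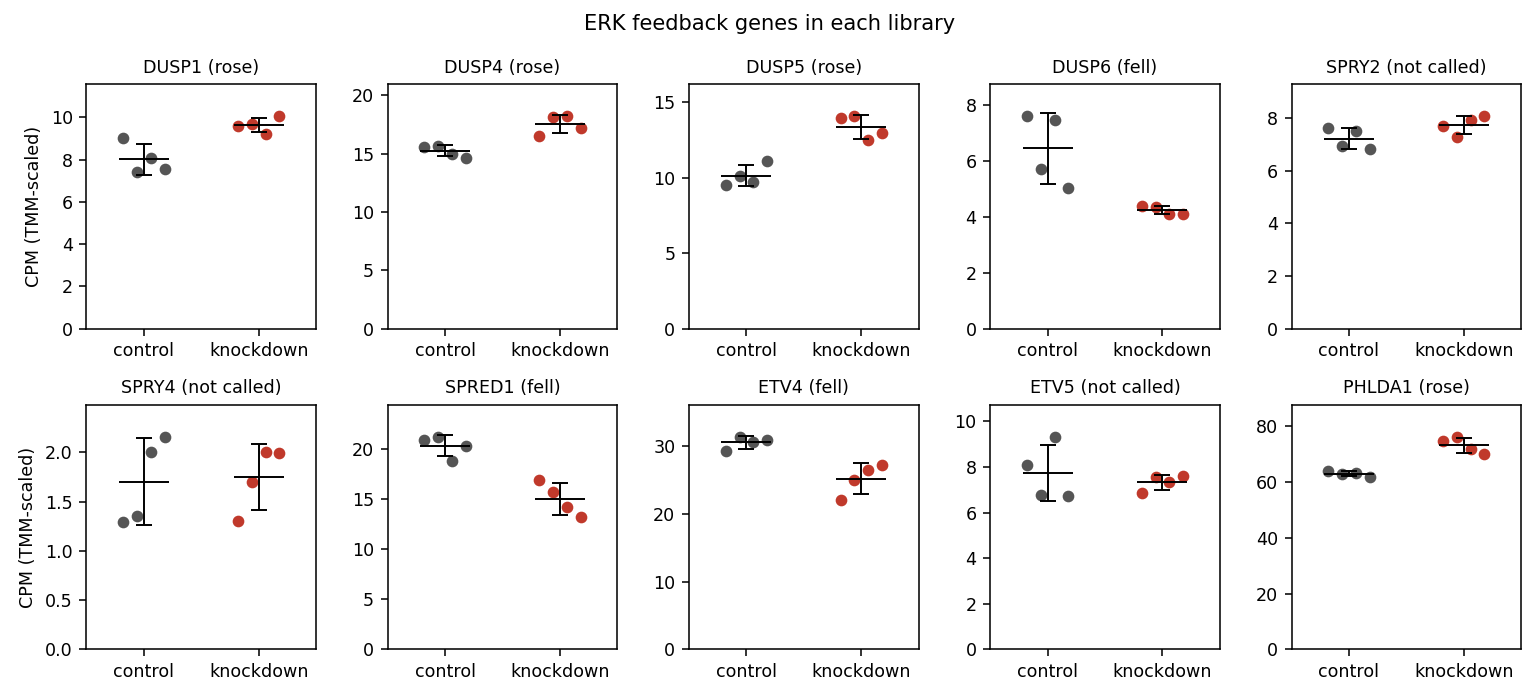
CPM (vertical axis, from 0) of each ERK feedback gene in 4 control libraries (grey) and 4 BOLA3-L knockdown libraries (red), with the mean and SD of each group in black and points in order of replicate number. In DUSP1, DUSP4, DUSP5 and PHLDA1 all knockdown points lie above all control points, and in DUSP6, SPRED1 and ETV4 all lie below.

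The opposite movement of DUSP4 and DUSP6 was also measured as a count ratio within each library, which needs no scaling between libraries. The ratio of DUSP4 to DUSP6 was 2.05, 2.74, 2.01 and 2.92 in the 4 controls and 3.77, 4.15, 4.43 and 4.17 in the 4 knockdown libraries. All 4 knockdown ratios exceeded all 4 control ratios, and the mean log2 ratio was 0.78 higher. Permuting the library labels exactly, over 70 assignments and on both sides, gave p = 0.0286, the smallest possible, and 0.114 adjusted over the 4 pairs compared, below which a single separated pair cannot go in this design. Since DUSP4 lay above and DUSP6 below all controls, the separation of their ratio follows from those values and adds no evidence of its own. DUSP5 over DUSP1 (log2 difference 0.13, raw p 0.371, adjusted 0.495 in the same exact test), SPRY2 over SPRY4 (0.04, raw 0.857, adjusted 0.857) and ETV4 over ETV5 (-0.22, raw 0.171, adjusted 0.343) overlapped between the groups. With 4 libraries a group these tests say little about whether the genes of a pair changed differently.

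**Figure D3:**
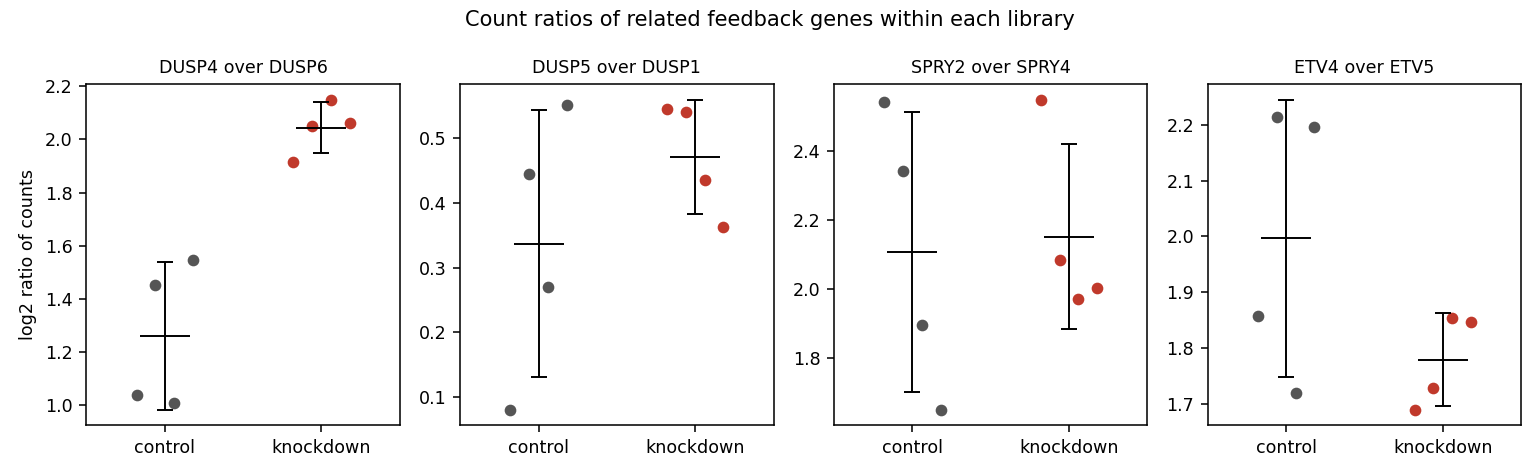
Log2 count ratio (vertical axis, range differs between panels) of 4 pairs of related feedback genes in each control (grey) and BOLA3-L knockdown library (red), with the mean and SD in black. The DUSP4 to DUSP6 ratio is higher in all 4 knockdown libraries, and the other pairs overlap between the groups.

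Of the inhibitors that act upstream of RAF, SPRED1 fell and the Sprouty genes did not pass the test. SPRED1, the partner of neurofibromin (identifier 161742, chromosome 15, 38252836 to 38357249), stood at 20.9, 21.2, 18.9 and 20.4 CPM in the controls and at 16.9, 15.8, 14.2 and 13.2 CPM after knockdown. All knockdown libraries lay below all controls. It fell by 0.44 on the log2 scale (SE 0.0780, 95% interval -0.60 to -0.27, adjusted p 3.4e-04 in edgeR), the smallest p of the 10 members. On log2(FPKM + 1) the change was -0.28, and on log2(FPKM + 0.1) it was -0.40.

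SPRY2, which blocks RAS activation below growth factor receptors (identifier 10253, chromosome 13, 80335976 to 80341126), stood at 7.59, 6.95, 7.50 and 6.81 CPM in the controls and at 7.67, 7.26, 7.90 and 8.06 CPM after knockdown, and the groups overlapped. Its log2 change of 0.10 had a 95% interval from -0.10 to 0.30 (adjusted p 0.463 in edgeR). SPRY4, a related inhibitor (identifier 81848, chromosome 5, 142310430 to 142325021), was scarce, with 40 to 71 counts per library. Its values of 1.29, 1.36, 2.003 and 2.16 CPM in the controls and 1.30, 1.70, 2.004 and 1.999 CPM after knockdown covered the same range. The log2 change was 0.04, and the 95% interval from -0.41 to 0.49 (adjusted p 0.909 in edgeR) is wide enough to hold changes as large as those of most other members.

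The ETS factors did not share a call. ETV4, an ETS activator downstream of receptor tyrosine kinases (identifier 2118, chromosome 17, 43527846 to 43546340), stood at 29.3, 31.4, 30.7 and 31.0 CPM in the controls and at 22.1, 25.04, 26.5 and 27.3 CPM after knockdown, with no overlap and with knockdown replicate 1 lowest. It fell by 0.28 on the log2 scale (SE 0.0649, 95% interval -0.41 to -0.14, adjusted p 0.00326 in edgeR). DHX8, a gene on the opposite strand whose exons overlap those of ETV4 in GENCODE, went from 130.1 ± 5.29 to 124 ± 3.07 CPM (SD, n = 4 each) and was not called (log2 change -0.07, adjusted p 0.187 in edgeR). ETV5, the close relative of ETV4 (identifier 2119, chromosome 3, 186046314 to 186109089), stood at 8.08, 6.76, 9.32 and 6.75 CPM in the controls and at 6.85, 7.54, 7.32 and 7.59 CPM after knockdown. The knockdown libraries fell inside the range of the controls. Its log2 change was -0.08 (95% interval -0.31 to 0.16, adjusted p 0.645 in edgeR) and 0.03 without control replicate 3. DGKG, whose exons overlap those of ETV5, had a mean of 0 CPM in controls and 0.0216 CPM after knockdown.

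PHLDA1, a pleckstrin homology-like protein induced by growth factor signalling (identifier 22822, chromosome 12, 76025447 to 76031776), was the most abundant member by counts and the most precisely measured. It read 63.8, 62.9, 63.3 and 61.8 CPM across controls 1 to 4. With knockdown, replicates 1 to 4 read 74.7, 76.2, 72.0 and 70.1 CPM. Every knockdown library lay above every control. The log2 change was 0.22 (SE 0.0436, 95% interval 0.13 to 0.31, adjusted p 9.2e-04 in edgeR). In GENCODE its exons overlap 2 antisense genes.

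**Figure D4:**
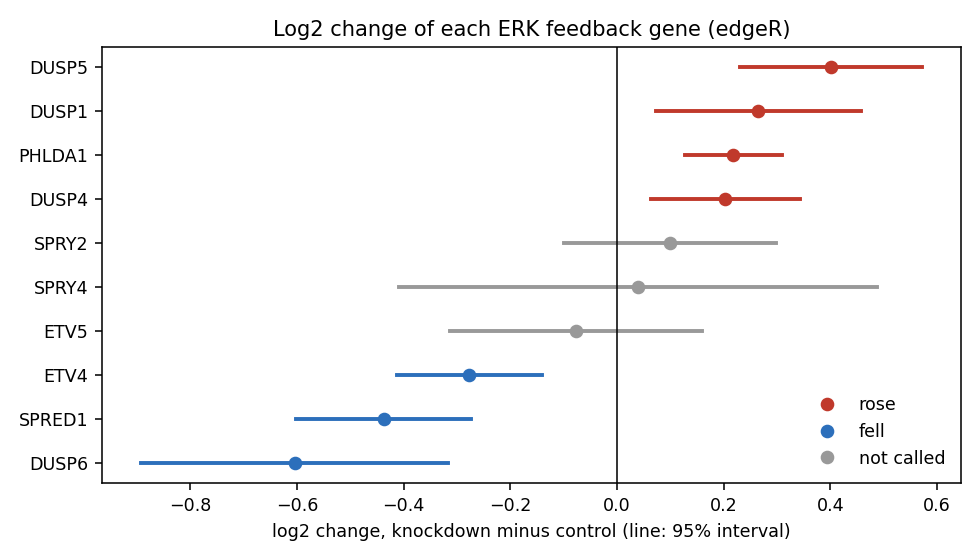
Log2 change (horizontal axis, knockdown minus control) of each ERK feedback gene with its 95% interval, coloured by whether it rose (red), fell (blue) or did not pass the test (grey). The set spans -0.60 for DUSP6 to 0.40 for DUSP5, and the widest of the intervals that include 0 is that of SPRY4.

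In all, the groups did not overlap in 7 of the 10 members, 4 with knockdown above and 3 with knockdown below, where 30.2% of all tested genes had no overlap. The 7 are the members that passed the test. DUSP5, DUSP6, SPRED1, ETV4 and PHLDA1 passed under all 17 alternatives run, with adjusted p-values up to 0.0275 for DUSP6 and 0.0238 for ETV4, whereas DUSP1 passed in 11 and DUSP4 in 13 of the 17. Shared sequence in the same orientation was small: of the 75-base windows of its transcripts, ETV5 had 5.73% and SPRED1 0.305% in common with another gene. The other 8 members had none. The search did not read the reverse strand, so it could not find the opposite-strand overlaps given above for DUSP6, ETV4 and PHLDA1.

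Profiles over the 8 libraries were taken as log2 CPM minus each gene's control mean, so they compare changes and not levels. Those of 10133 other genes averaging 5 CPM or more were set against PHLDA1, the member that rose with the smallest p. The closest belonged to the ubiquitin ligase RNF20, the cytokine receptor chain IL10RB and the membrane glycoprotein GINM1. Their root-mean-square differences from PHLDA1 were 0.032, 0.032 and 0.033 in centred log2 CPM. RNF20 went from 111 ± 1.72 to 127 ± 5.22 CPM (SD, n = 4 each). The profiles closest to SPRED1 were those of the cholesterol synthesis enzyme HMGCS1, of TSC22D2 and of the actin-binding protein CCDC88A, at 0.066, 0.067 and 0.070. HMGCS1 went from 78.3 ± 2.14 to 59.8 ± 4.86 CPM (SD, n = 4 each).

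Of 21 tested genes of the kinase cascade, from receptor adaptors to ribosomal S6 kinases, 3 rose and 4 fell (33.3%, near the 30.7% of all tested genes), with a median log2 change of 0.02. MAP2K1, which encodes the ERK-activating kinase MEK1, rose from 115 ± 3.97 to 136 ± 2.02 CPM (log2 change 0.23, adjusted p 1.5e-04 in edgeR). The GTPase gene NRAS fell from 184 ± 2.40 to 154 ± 7.29 CPM (-0.26, adjusted p 6.9e-05 in edgeR), the adaptor SHC1 from 129 ± 3.03 to 107 ± 6.34 CPM (-0.27, adjusted p 1.7e-04) and the ERK substrate kinase RPS6KA3 from 131 ± 3.00 to 114 ± 9.03 CPM (-0.19, adjusted p 0.00557). Without control replicate 2 the list had 4 calls, 1 up and 3 down.

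Of 18 other tested inhibitors of the pathway 1 rose and 4 fell (27.8%, near the 30.7% of all tested genes), with a median log2 change of -0.05; DUSP2 and SPRY3 were too low to test. DUSP7, a cytoplasmic ERK phosphatase related to DUSP6, rose from 59.0 ± 2.82 to 71.6 ± 2.74 CPM (log2 change 0.28, adjusted p 2.3e-04 in edgeR), opposite in sign to DUSP6. SPRED2, a relative of SPRED1, fell from 42.0 ± 1.73 to 37.4 ± 0.492 CPM (-0.17, adjusted p 0.0167), and NF1, which encodes neurofibromin, from 337 ± 7.19 to 306 ± 24.4 CPM (-0.14, adjusted p 0.0248). DUSP9 fell from 0.714 ± 0.211 to 0.309 ± 0.187 CPM (-1.20, adjusted p 0.0211). On log2(FPKM + 1) its change was -0.17 (adjusted p 0.0548 in limma). The added 1 shrinks that change, as the mean was 0.244 FPKM in controls and 0.107 FPKM after knockdown. The calls of SPRED2 (adjusted p 0.0607 and 0.0528 without control replicate 2 or 3), of NF1 (0.0511 to 0.104 with any 1 of the replicates numbered 2, 3 or 4 left out, in either group) and of DUSP9 (0.0637 to 0.0811 when control replicate 2 or 4 was left out, or when knockdown replicate 2 or 3 was) depended on single libraries. The list had 2 calls when control replicate 2, 3 or 4 was left out or when knockdown replicate 2 or 3 was, and 3 without BOLA3-L knockdown replicate 4.

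Output genes outside the feedback set were also divided. Of 15 tested genes 5 rose and 3 fell (53.3%, beside 30.7% of all tested genes), with a median log2 change of 0.03, and EPHA4 was too low to test. The immediate early factor EGR1 rose from 60.2 ± 2.71 to 78.5 ± 6.20 CPM (log2 change 0.38, adjusted p 4.6e-05 in edgeR) and the cyclin CCND1 from 302 ± 5.83 to 340.1 ± 4.48 CPM (0.17, adjusted p 5.3e-04). The early response gene IER3 fell from 86.6 ± 3.61 to 62.9 ± 2.94 CPM (-0.46, adjusted p 7.4e-07) and the chromatin protein gene HMGA2 from 36.2 ± 1.75 to 30.7 ± 1.46 CPM (-0.24, adjusted p 0.00335). FOS, the other early gene named here after its values were seen, fell (-0.33, adjusted p 0.0188), opposite to EGR1. Without BOLA3-L knockdown replicate 4 the list had 5 calls, 3 up and 2 down.

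Upstream of the cascade, 3 of 13 tested receptors and ligands rose and 3 fell (46.2%, beside 30.7% of all tested genes), with a median log2 change of 0.08. ERBB4, FGFR1, EGF, EREG and BTC were too low to test. Those that rose included the receptors ERBB2 (log2 change 0.28, adjusted p 0.00158 in edgeR) and FGFR2 (0.21, adjusted p 2.6e-04). The largest change was in FGFBP1, a carrier that releases fibroblast growth factors from the matrix, which fell from 53.1 ± 3.69 to 24.2 ± 1.87 CPM (log2 change -1.14, adjusted p 3.6e-10 in edgeR). The ligands FGF2 (-0.64, adjusted p 2.1e-07) and NRG1 (-0.63, adjusted p 3.9e-09) fell, and the EGF receptor ligand TGFA rose from 48.4 ± 2.22 to 63.5 ± 2.41 CPM (0.39, adjusted p 9.0e-06). Each of these 3 ligands changed by about as much as the members that changed most, in opposite directions.

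**Figure D5:**
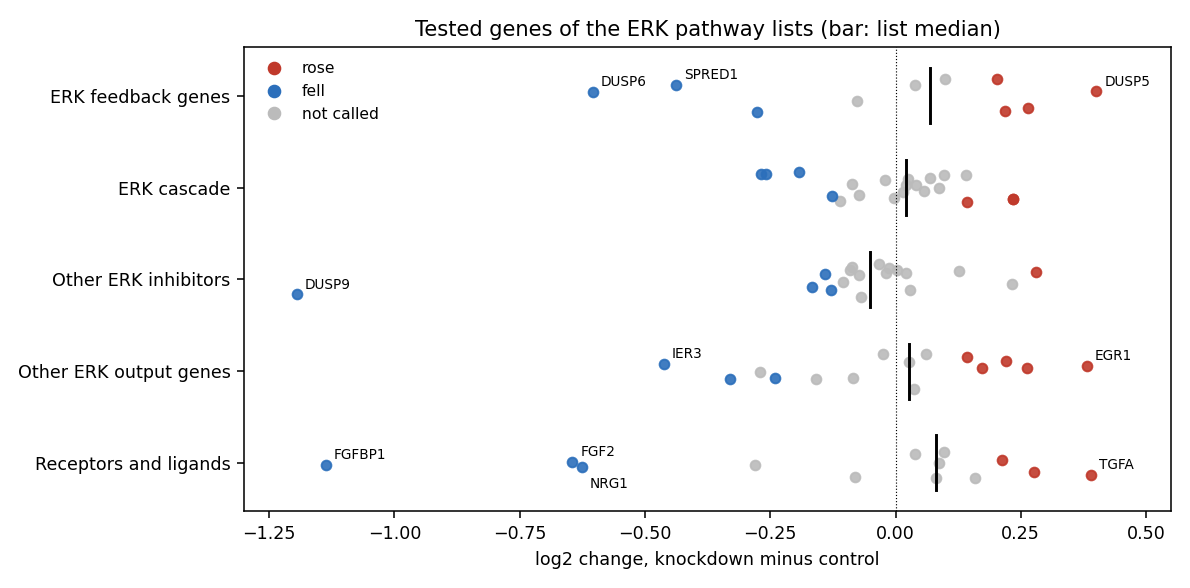
Log2 change (horizontal axis, knockdown minus control) of the tested genes of the feedback set and of 4 other ERK pathway lists, 1 point per gene, red for genes that rose, blue for genes that fell and grey for genes that did not pass, with a black bar at each list's median. The medians lie between -0.05 and 0.08, and the genes with the largest changes carry their names.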

How the data were processed

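Poly(A) RNA of KYSE150 cells was sequenced as 150 bp paired-end reads and filtered with fastp, per the labels and the series' design text; the build is hg38 per the submitters' processing notes, and the sources used here name no aligner, counter, strand setting or annotation. The deposited table holds raw counts per gene. A second deposited table holds FPKM that the authors scaled by library total and 1 length per gene; all 110558 values above 0 equal the scaled count to within 1e-06. Counts were filtered with filterByExpr, scaled by TMM and compared with edgeR 4.0.16 (robust quasi-likelihood F-test, Benjamini-Hochberg over 11841 genes, threshold 0.05; R 4.3.3). The SE is the absolute log2 change over the square root of F. Ratios within a library added 0.5 to each count. Alternatives were other scalings, filters, DESeq2 1.42.0, limma 3.58.1 on FPKM, a replicate block and each library left out; edgeR was tested on simulated data.

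Members, lists and tests were chosen with earlier results of these data known. By rule the text names BOLA3, the members, the 4 genes with the smallest p among those called in each list, and the 3 genes nearest in profile to 2 members. Outside that rule FOS, ERBB2 and FGFR2 were named after their values were seen, and DHX8 and DGKG for their overlap with members. Markers and untested genes are named as well. Promoters and coordinates come from RefSeq (GRCh38.p14) and overlaps from GENCODE 29.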

Additional observations from a re-analysis of the deposited data

Results flagged for a closer look

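The groups of 4 libraries examined numbered 62, those of BOLA3, the members, the 4 genes per list with the smallest p and the ratios. Of these, 4 held a library far from the other 3, where about 1 in 20 such groups is picked out by chance. None of the 20 groups of the feedback genes themselves was among them. In MAP2K1, control replicate 4 was high at 121 CPM, with the other controls at 113 to 114 CPM and all below the knockdown libraries. In RPS6KA3, BOLA3-L knockdown replicate 1 was high at 128 CPM, with the other knockdown libraries at 109 to 111 CPM. In SPRED2, control replicate 4 was low at 39.5 CPM against 42.7 to 43.3 CPM. In DUSP9, BOLA3-L knockdown replicate 4 was high at 0.588 CPM against 0.190 to 0.232 CPM.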

How the results depend on the processing

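The number of feedback genes called was 7 under 8 of the 9 alternatives that kept all libraries, 6 with a replicate block, and 5 to 7 with a library left out; all tested genes gave 3392 calls with the replicate block and 2841 to 5081 with a library left out, the most without BOLA3-L knockdown replicate 1. Mean paired differences of the log2 ratios (replicate block) equal the unpaired ones, 0.78 for DUSP4 over DUSP6, and with 4 pairs allow no p below 0.125. Correlations of deviations between libraries of the same number were -0.0444 to 0.0876, the highest being that of replicate 3. Not every library correlated best with its own number, and values this small cannot exclude a weak pairing. The block ended no call of a member other than that of DUSP1. With a library left out, the ratio differences were 0.70 to 0.88 for DUSP4 over DUSP6, 0.05 to 0.21 for DUSP5 over DUSP1, -0.11 to 0.19 for SPRY2 over SPRY4 and -0.31 to -0.14 for ETV4 over ETV5. Leaving out a library gave 4 to 10 calls in the cascade list, 2 to 6 among other inhibitors, 5 to 9 among other output genes and 6 to 8 among receptors and ligands. With limma on FPKM, 2 other inhibitors were called under each of the 3 settings, and 4 cascade genes with no minimum; the causes were not tested. SPRY4 turned sign when control replicate 1 (-0.070) or 2 (-0.052) was left out or when knockdown replicate 3 (-0.031) or 4 (-0.029) was, with the 8 values from -0.07 to 0.17, and ETV5 (-0.14 to 0.03) turned to 0.027 without control replicate 3. SPRY4 had no value on FPKM with a minimum of 0.5, which it does not reach. At this depth DUSP2, SPRY3, EPHA4, ERBB4, FGFR1, EGF, EREG and BTC could not be tested.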

Other observations

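The feedback genes did not vary alike among the controls. In 5 of the 10 members, DUSP1, DUSP6, SPRY2, ETV5 and PHLDA1, the highest 2 of the 4 control values were those of replicates 1 and 3, an arrangement found in 15.5% of all tested genes and noticed after the values were seen. It was widest in DUSP6 (7.59 and 7.47 against 5.71 and 5.01 CPM) and ETV5 (8.08 and 9.32 against 6.76 and 6.75 CPM) and narrowest in PHLDA1 (63.8 and 63.3 against 62.9 and 61.8 CPM). In DUSP4 and SPRED1 the highest were replicates 1 and 2, in DUSP5 and ETV4 replicates 2 and 4, and in SPRY4 replicates 3 and 4. Genes of the pathway outside the set differed too. EGR1, an early gene, stood at 58.4, 64.2, 59.8 and 58.6 CPM in control replicates 1 to 4, with replicate 2 highest. TGFA stood at 49.96, 45.7, 50.5 and 47.6 CPM and FGFBP1 at 56.9, 48.2, 54.7 and 52.6 CPM, with replicates 1 and 3 highest in both. These genes were picked after their values were seen, and the arrangement was not counted over the other lists. The sources used here give no batch for the libraries, and whether the arrangement is technical was not tested.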
